A study of Mus musculus with 6 samples.

Results

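The major histocompatibility complex (MHC) genes of the mouse and the genes that load and present peptides with them were followed in intestinal epithelial cells. Members were every gene whose symbol begins with H2-, and B2m, Tap1, Tap2, Tapbp, Tapbpl, Erap1, Nlrc5, Cd74 and Ciita. The rule found 41 of the 18159 genes in the count table. They comprised 22 class I genes, 7 genes of the class I machinery, 9 class II genes, 2 genes of the class II machinery and H2-Ke6. The last lies in the MHC but is named Hsd17b8 in the RefSeq annotation and has no MHC fold, so it was kept out of both classes. The data were 3 RNA-seq libraries labelled Git2-knockout and 3 wild-type libraries of intestinal epithelial cells. The design text calls them enteroids, which are epithelial organoids, of mice aged 12 days. Titles say knockout where the genotype field says knockdown, and no allele, strain or treatment is given. Of the members, 34 passed the filter on low counts and were tested.

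MHC class I molecules pair a heavy chain with beta-2-microglobulin and carry peptides made inside the cell to CD8 T cells. MHC class II molecules carry peptides from the endosomal pathway to CD4 T cells, and are made mainly by B cells, dendritic cells and macrophages, while intestinal epithelium makes them under interferon-gamma. Nlrc5 and Ciita are the transactivators of the class I and class II genes, and both act on promoters that hold the X and Y boxes, the Y box being the CCAAT element bound by NF-Y.

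Total estimated counts were 16284414, 16822399 and 16837158 in the libraries labelled Git2-knockout, and 18753649, 18974161 and 19106581 in the wild-type libraries. Git2 itself was at 17.4, 15.5 and 16.8 CPM (counts per 1000000 counts of a library, scaled by TMM) in the libraries labelled Git2-knockout, and at 22.2, 23.7 and 22.7 CPM in wild type. Its mean was 72.3% of wild type (95% interval 65.0% to 80.4%), with a log2 fold change of -0.47 ± 0.07 (SE) and an adjusted p of 4.44e-05. The transcript was thus reduced and not absent, so every direction below is that of the labelled libraries. Which part of Git2 was deleted is not stated in the labels, so reads outside it would not check the label. Adjusted p-values throughout come from the quasi-likelihood test of edgeR, with adjustment by Benjamini and Hochberg's method across the 13558 genes tested, and a gene is said to have risen or fallen where that value was under 0.05. At that threshold 57.0% of all genes tested were called, 29.6% as rises and 27.4% as falls, and the median log2 fold change was 0.02. Libraries of a group differed by 1.60 to 7.16 chi-square units per degree of freedom, against 30.1 to 42.8 between groups. The highest values within a group, 7.16 and 5.31, were those of Git2-knockout replicate 1 against the other 2.

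Of the 34 members tested, 1 rose, 15 fell and 18 were not called. In 15 members every library labelled Git2-knockout was below every wild-type library, and in 2 members every one was above. Over all genes tested 30.6% lay wholly below and 32.3% wholly above. The share of members called was thus below the background of 57.0%, while falls made up 15 of the 16 calls. The counts were split by class. Of 23 tested members on the class I side, 1 rose, 11 fell and 11 were not called, with a median log2 fold change of -0.13. Of 10 tested members on the class II side, 0 rose, 3 fell and 7 were not called, with a median of -0.05. At an unadjusted p under 0.05 the number of class II rises by edgeR was also 0, and limma-trend on log2(TPM + 1) called 1. Without Git2-knockout replicate 1, 12 class I and 5 class II members fell, and without wild-type replicate 3, 6 class I and 3 class II members fell. In bulk RNA, fewer cells of a type and less RNA per cell cannot be told apart.

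**Figure D1:**
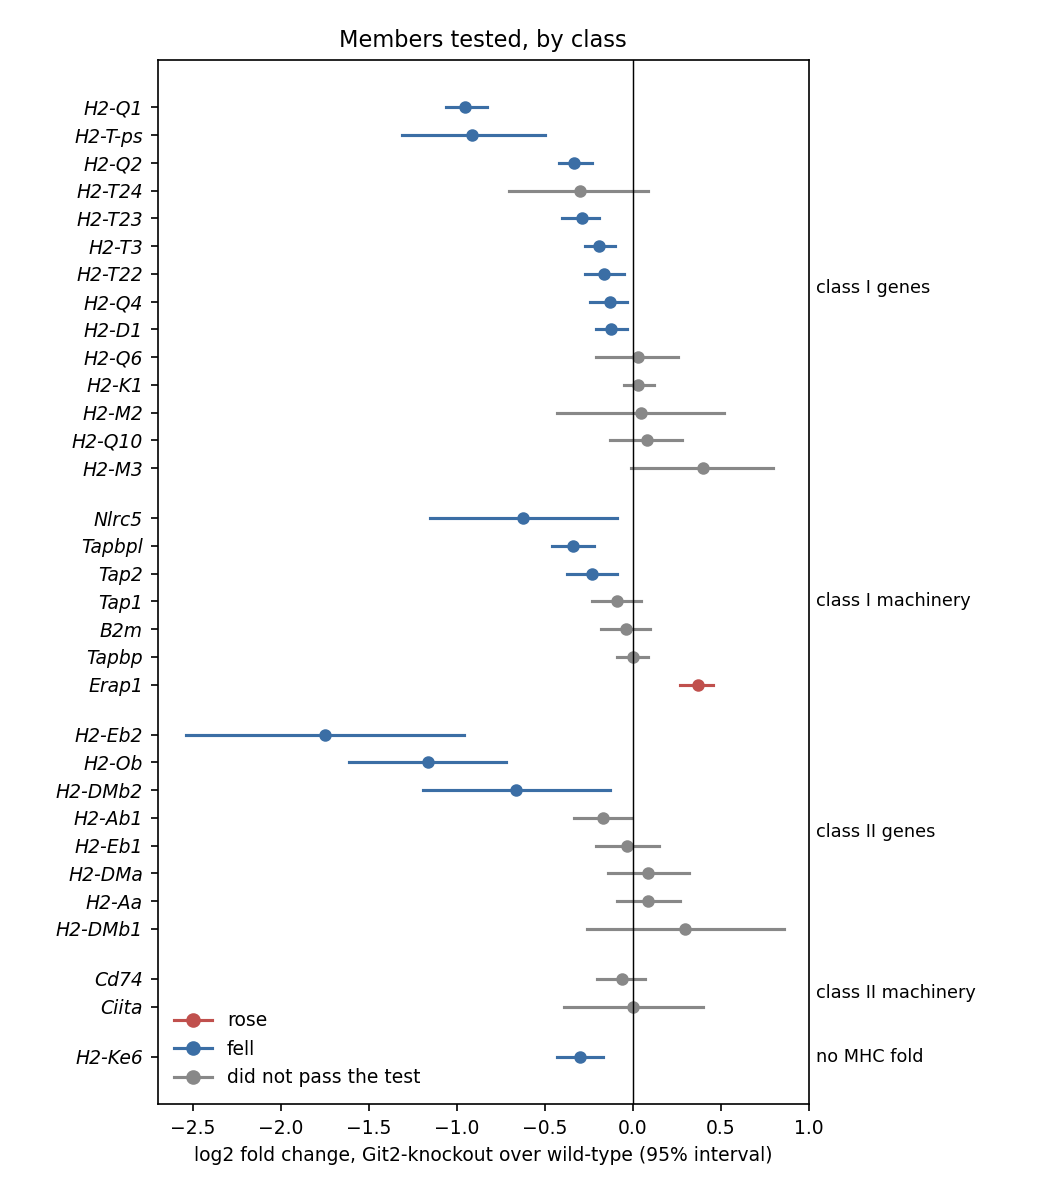
Log2 fold change (libraries labelled Git2-knockout over wild type) of the tested members with their 95% intervals, from edgeR, grouped by class; H2-Q7 and H2-Q9 are left out because their intervals are too wide. The classical genes H2-K1 (0.03) and H2-D1 (-0.12) lie near 0, while H2-Q1 (-0.95), H2-Ob (-1.16) and H2-Eb2 (-1.75) lie farthest below it, and Erap1 (0.37) is the called rise.

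H2-K1 and H2-D1 encode the classical class I heavy chains and were the most abundant class I genes. On the TPM scale, which corrects for transcript length, H2-K1 averaged 1485 ± 21.2 TPM in libraries labelled Git2-knockout and 1337 ± 34.1 TPM in wild-type libraries (SD, n = 3 each). H2-D1 averaged 1214 ± 27.2 TPM in libraries labelled Git2-knockout and 1183 ± 38.6 TPM in wild-type libraries. Together they supplied 75.4%, 75.3% and 75.9% of the summed TPM of the class I genes in the libraries labelled Git2-knockout, against 72.1%, 72.3% and 72.7% in the wild-type libraries. The 2 sets of shares did not overlap. In CPM, the scale of the test, H2-K1 was at 1130, 1040 and 1080 in the libraries labelled Git2-knockout and at 1031, 1056 and 1091 in wild type, so the groups overlapped and it was not called (log2 fold change 0.03 ± 0.04 SE, adjusted p = 0.504). H2-D1 was at 945, 864 and 907 CPM in the libraries labelled Git2-knockout and at 954, 974 and 1032 CPM in wild type. It fell slightly (-0.12 ± 0.04, adjusted p = 0.0197), without overlap, but was not called without Git2-knockout replicate 2 (adjusted p = 0.0644), without Git2-knockout replicate 3 (0.0543) or without wild-type replicate 3 (0.119). The ratio of H2-K1 to H2-D1, which cancels library scaling, was 1.21, 1.24 and 1.23 in TPM in the libraries labelled Git2-knockout and 1.13, 1.14 and 1.12 in wild type. The ratio was higher in every library labelled Git2-knockout, a description to which no test was applied. The transcripts overlap in sequence: 8.8% of the 50-base stretches of H2-K1 transcripts and 14.3% of those of H2-D1 occur in transcripts of another gene, so reads there were divided by estimation.

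The regions upstream of class I genes are shown because the CCAAT box is the element through which class I promoters are known to bind NF-Y. The windows, from RefSeq on GRCm38.p6, run from 250 bases before to 50 after the annotated start, 5′ to 3′ on the gene's strand. Capitals mark CCAAT or its reverse complement ATTGG. H2-K1 is at chr17:34000284-34000583 on the minus strand and is 1 of 2 windows of that gene, H2-D1 at chr17:35262844-35263143 on the plus strand and H2-Q2 at chr17:35342057-35342356 on the plus strand.
H2-K1: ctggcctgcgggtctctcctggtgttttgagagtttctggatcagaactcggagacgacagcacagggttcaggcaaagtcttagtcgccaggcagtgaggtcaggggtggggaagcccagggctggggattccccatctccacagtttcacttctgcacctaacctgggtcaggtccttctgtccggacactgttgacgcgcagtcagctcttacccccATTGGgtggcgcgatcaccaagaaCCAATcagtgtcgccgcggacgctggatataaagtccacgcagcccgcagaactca
H2-D1: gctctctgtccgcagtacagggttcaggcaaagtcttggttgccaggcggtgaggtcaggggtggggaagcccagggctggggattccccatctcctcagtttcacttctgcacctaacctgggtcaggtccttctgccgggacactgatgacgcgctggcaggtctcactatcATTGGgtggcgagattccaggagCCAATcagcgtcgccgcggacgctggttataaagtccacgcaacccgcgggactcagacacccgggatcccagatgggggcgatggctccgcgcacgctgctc
H2-Q2: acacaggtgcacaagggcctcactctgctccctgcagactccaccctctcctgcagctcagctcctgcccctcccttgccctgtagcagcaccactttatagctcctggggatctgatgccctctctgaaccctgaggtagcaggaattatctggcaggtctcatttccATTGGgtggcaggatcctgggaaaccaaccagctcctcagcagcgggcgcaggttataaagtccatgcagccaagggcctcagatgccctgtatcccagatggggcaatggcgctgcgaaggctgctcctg
H2-K1 and H2-D1 each hold 2 CCAAT boxes in opposite orientations, beginning 30 and 6 bases before the annotated start in H2-K1 and 76 and 53 bases before it in H2-D1, and H2-Q2 holds 1, at 81 bases. Among class I genes 16 of 19 windows (84.2%) held the motif on either strand, against 37.4% of the 32817 windows in the table. The core of the interferon-stimulated response element (ISRE) was, on either strand, in 2 of the 19 (10.5%), against 3.4% of all windows. The search for this core was exact and misses an ISRE with other letters. Windows without a match, such as those of H2-K1 and H2-D1, may therefore still hold one. The same limit applies to the ISRE count of class II genes below. The STAT-type palindrome TTCNNNGAA was in 1 of the 19 (5.3%), against 8.3%. No motif overlapped a different one in these windows, and a match is a description of the letters only.

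The class I gene with the largest called fall was H2-Q1 of the Qa region, which is non-classical. It was at 43.9, 38.9 and 42.4 CPM in the libraries labelled Git2-knockout and at 79.2, 79.5 and 82.7 CPM in wild-type libraries. Every library labelled Git2-knockout was far below every wild-type library. Means were 41.7 ± 2.56 and 80.5 ± 1.93 CPM (SD, n = 3 each), so the level was 51.8% of wild type (95% interval 47.9% to 56.1%; log2 fold change -0.95 ± 0.05 SE, adjusted p = 1.08e-09). Its share of the summed class I TPM was 1.30%, 1.21% and 1.36% in the libraries labelled Git2-knockout and 2.59%, 2.49% and 2.50% in wild type. H2-Q2, the gene with which it shares most sequence, was at 203, 183 and 190 CPM in the libraries labelled Git2-knockout against 240, 236 and 247 CPM in wild type, and also fell (-0.33 ± 0.05, adjusted p = 1.35e-05). The TPM ratio of H2-Q1 to H2-Q2 was 0.207, 0.200 and 0.222 in the libraries labelled Git2-knockout and 0.356 in each of the wild-type libraries, so the fall of H2-Q1 was the deeper of the pair. Of the 50-base stretches of H2-Q1 transcripts, 22.9% occur in another gene and 13.9% in H2-Q2, so part of its estimate rests on divided reads.

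H2-Q4, another Qa-region gene, was at 88.7, 83.4 and 79.0 CPM in the libraries labelled Git2-knockout and at 90.6, 92.8 and 91.3 CPM in wild type. Its fall was small (-0.13 ± 0.05, adjusted p = 0.0341) and was not called without Git2-knockout replicate 2 or 3 or without any 1 of the wild-type libraries (adjusted p from 0.0554 to 0.139). H2-Q6, H2-Q7 and H2-Q9 belong to the Qa-2 group of near-identical genes, and H2-Q6 and H2-Q7 share 32.0% and 34.9% of their 50-base stretches with other genes. H2-Q6 was at 11.8, 13.7 and 14.6 CPM in the libraries labelled Git2-knockout and at 12.9, 15.2 and 11.3 CPM in wild type. H2-Q7 was at 1.03, 0 and 0.177 CPM in the libraries labelled Git2-knockout and at 1.88, 0 and 0.639 CPM in wild type. H2-Q9 was at 0.971, 1.82 and 1.94 CPM in the libraries labelled Git2-knockout and at 0, 2.19 and 1.92 CPM in wild type. These single values are uncertain because reads could move between the copies. Their sum was 13.8, 15.5 and 16.7 CPM in the libraries labelled Git2-knockout and 14.8, 17.4 and 13.8 CPM in wild type, with overlap, and none of the 3 was called (edgeR adjusted p for H2-Q7 0.604 and for H2-Q9 0.874). H2-Q10, which in mouse is known as a class I protein secreted by the liver, was at 13.2, 13.2 and 12.2 CPM in the libraries labelled Git2-knockout and at 10.5, 12.3 and 13.7 CPM in wild type, and was not called (adjusted p = 0.535). It was called as a rise by limma-trend on log2(TPM + 1) (0.23, adjusted p = 0.0415) and by edgeR with length and GC trends removed (0.32, adjusted p = 0.00583).

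Several non-classical genes of the T region also fell. H2-T3 encodes the TL antigen of intestinal epithelium, a ligand of CD8 alpha-alpha homodimers on intraepithelial lymphocytes. It was at 150, 152 and 149 CPM in the libraries labelled Git2-knockout and at 168, 173 and 173 CPM in wild type (-0.19 ± 0.04, adjusted p = 9.25e-04). H2-T23 encodes Qa-1, which presents leader peptides to receptors of natural killer cells. It was at 146, 128 and 132 CPM in the libraries labelled Git2-knockout and at 159, 166 and 171 CPM in wild type (-0.29 ± 0.05, adjusted p = 1.41e-04). H2-T22, a ligand of gamma-delta T cells, was at 36.6, 34.9 and 36.0 CPM in the libraries labelled Git2-knockout and at 41.3, 38.6 and 40.2 CPM in wild type (-0.16 ± 0.05, adjusted p = 0.0189). The groups did not overlap in any of these 3 genes. The fall of H2-T22 was not called without wild-type replicate 1 (adjusted p = 0.0722) or replicate 3 (0.0535), and 44.7% of its 50-base stretches occur in another gene, mostly H2-T10. H2-T-ps was at 2.18, 2.58 and 1.59 CPM in the libraries labelled Git2-knockout and at 3.39, 3.85 and 4.68 CPM in wild type, which is 53.4% of wild type (-0.91 ± 0.19, adjusted p = 7.24e-04). Its level was low, and 18% of its 50-base stretches occur in H2-T23. H2-T24 was at 2.12, 3.05 and 2.53 CPM in the libraries labelled Git2-knockout and at 2.85, 2.78 and 3.89 CPM in wild type, with overlap, and was not called.

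Class I genes of the M region were scarce. H2-M3, which presents N-formylated peptides, was at 2.0, 2.23 and 2.53 CPM in the libraries labelled Git2-knockout and at 1.78, 1.76 and 1.60 CPM in wild type. The groups did not overlap, but the test did not call it (0.40 ± 0.19, adjusted p = 0.0859). H2-M3 was called as a rise by limma-trend on log2(TPM + 1) (0.43, adjusted p = 0.00351). It was also called as a rise by edgeR with the length trend removed (0.59, adjusted p = 0.0166) or with length and GC trends removed (0.61, adjusted p = 0.017). H2-M2 was at 1.40, 1.52 and 1.88 CPM in the libraries labelled Git2-knockout and at 1.29, 1.55 and 1.81 CPM in wild type, with overlap (adjusted p = 0.873). H2-M5, H2-M9, H2-M10.1, H2-M10.2, H2-M10.5 and H2-M10.6 had 0 to 1.01 estimated counts in each library and were not tested. A count of 0 allows up to 3 counts, or 0.176 to 0.182 CPM in the libraries labelled Git2-knockout and 0.160 to 0.161 CPM in wild type, and no library of either group had more than about 1 count of any of these genes. That limit covers counting error only.

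**Figure D2:**
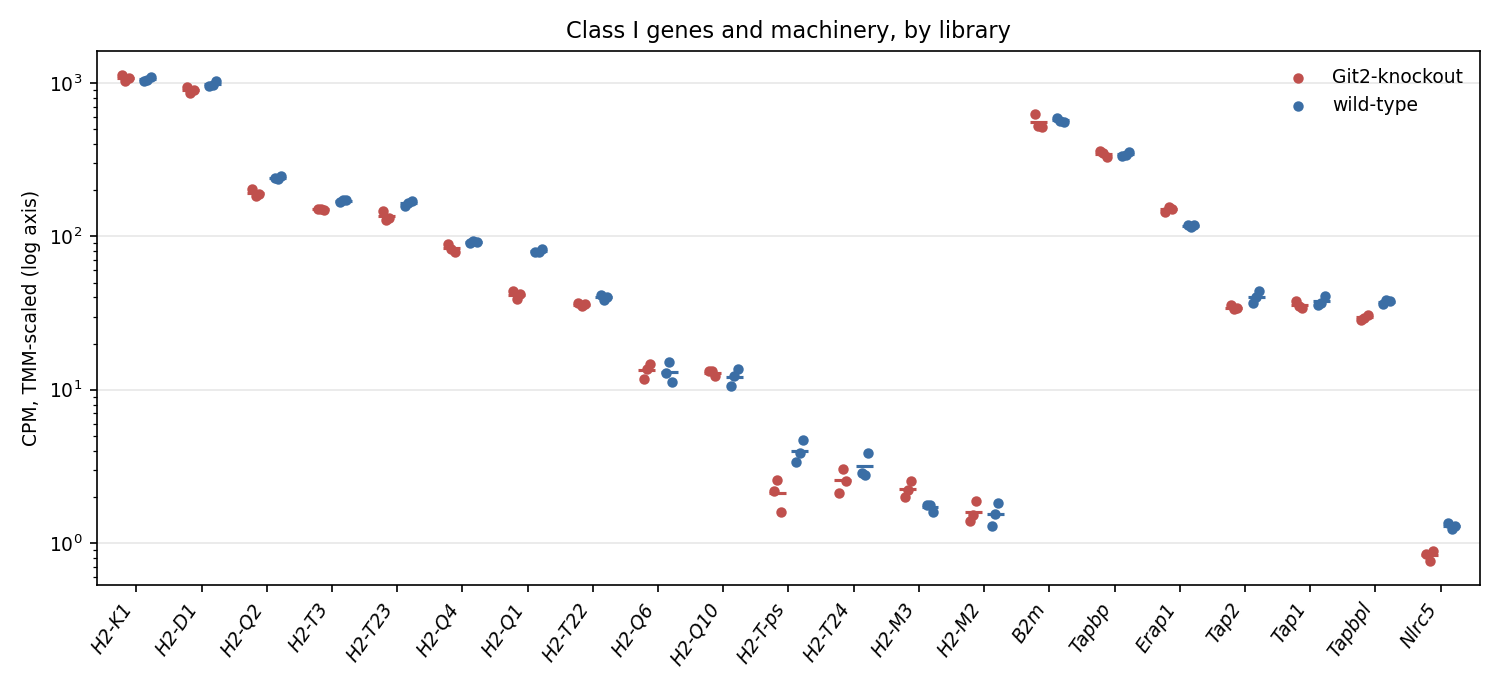
CPM in each library on a log axis for the tested class I genes and the class I machinery, libraries labelled Git2-knockout left of wild type, with group means as bars; H2-Q7 and H2-Q9 are left out. The groups overlap in H2-K1 and B2m, and H2-Q1 is well separated, with 38.9 to 43.9 CPM in libraries labelled Git2-knockout and 79.2 to 82.7 CPM in wild-type libraries.

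In the count test the class I machinery moved in both directions. B2m, the light chain that all class I molecules need, had the highest TPM of the members, 1552 ± 128 TPM in libraries labelled Git2-knockout and 1429 ± 57.2 TPM in wild-type libraries (SD, n = 3 each). It was at 625, 522 and 521 CPM in the libraries labelled Git2-knockout and at 589, 570 and 554 CPM in wild type and was not called (adjusted p = 0.633). The highest and the lowest value both lay among the libraries labelled Git2-knockout, and without replicate 1 of that group B2m was called as a fall (-0.16, adjusted p = 9.45e-05). With the length trend removed B2m was called as a rise (0.28, adjusted p = 4.92e-06), and with length and GC trends removed it was not called (0.04, adjusted p = 0.223). Erap1, the aminopeptidase that trims peptides in the endoplasmic reticulum, was the 1 member that rose. It was at 144, 156 and 152 CPM in the libraries labelled Git2-knockout and at 118, 115 and 118 CPM in wild type, without overlap. The level was 129% of wild type (95% interval 121% to 138%, log2 fold change 0.37 ± 0.04, adjusted p = 3.29e-06). Erap1 stayed called with the length trend removed (0.21, adjusted p = 3.65e-05) but not with length and GC trends removed (-0.01, adjusted p = 0.788).

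Tap1 and Tap2 form the transporter that brings peptides into the endoplasmic reticulum. Tap1 was at 38.0, 35.0 and 34.1 CPM in the libraries labelled Git2-knockout and at 35.7, 37.0 and 41.1 CPM in wild type, with overlap, and was not called (-0.09, adjusted p = 0.255), except as a fall without Git2-knockout replicate 1 (-0.16, adjusted p = 0.0223). Tap2 was at 35.5, 33.6 and 34.0 CPM in the libraries labelled Git2-knockout and at 36.8, 40.4 and 43.9 CPM in wild type, and fell (-0.23 ± 0.06, adjusted p = 0.00625), but was not called without wild-type replicate 3 (-0.17, adjusted p = 0.0531). Tapbp encodes tapasin, which holds class I molecules at the transporter. It was at 360, 348 and 330 CPM in the libraries labelled Git2-knockout and at 336, 342 and 357 CPM in wild type, with a log2 fold change of 0.00 (adjusted p = 0.942). Tapbp was called as a rise by limma-trend on log2(TPM + 1) (0.16, adjusted p = 0.00357) and by edgeR with length and GC trends removed (0.20, adjusted p = 2.55e-05). Tapbpl, the tapasin-related peptide editor, was at 28.6, 29.5 and 30.9 CPM in the libraries labelled Git2-knockout and at 36.3, 38.2 and 38.1 CPM in wild type. Unlike Tapbp it was called in the count test, as a fall (-0.34 ± 0.06, adjusted p = 8.63e-05). The difference between the 2 genes was not tested. Nlrc5, the transactivator of class I genes, was at 0.850, 0.762 and 0.883 CPM in the libraries labelled Git2-knockout and at 1.34, 1.23 and 1.28 CPM in wild type. The groups did not overlap and it fell (-0.62 ± 0.25, adjusted p = 0.0443), but the call was lost whichever library was left out (adjusted p from 0.0716 to 0.12). It stayed called with the length trend removed (-0.90, adjusted p = 0.00654) and with length and GC trends removed (-0.74, adjusted p = 0.0292).

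Summed over the class I genes, libraries labelled Git2-knockout had 2778, 2563 and 2653 CPM and wild-type libraries 2797, 2855 and 2968 CPM. The same sums in TPM were 3608, 3512 and 3599 in the libraries labelled Git2-knockout and 3411, 3461 and 3578 in wild type, so the order of the groups turned with the scale. On the class I side the TPM test gave 5 rises and 5 falls (median log2 difference 0.03), against 42.1% and 14.0% of all genes, whose median was 0.14 on that scale. Members were shorter and richer in GC than other genes: tested members had a median transcript length of 1.71 kb and a GC content of 53.3%, against 2.86 kb and 49.8% over all genes tested. Over all genes the median log2 fold change was -0.19 among the 4497 shortest and 0.23 among the 4497 longest transcripts, and -0.18 among the 4458 genes highest in GC and 0.25 among the 4458 lowest. With both trends removed in each library, 5 class I members rose and 4 fell (median 0.00), against a background of 22.0% rises and 19.3% falls. H2-Q1 (-0.85), Nlrc5 (-0.74), H2-T-ps (-0.55) and Tapbpl (-0.16) then still fell, whereas H2-K1 rose (0.27, adjusted p = 2.86e-09), H2-D1 rose (0.14, adjusted p = 1.71e-04) and Erap1 was not called (-0.01). H2-T3 (-0.08), H2-T23 (0.00), H2-Q2 (-0.06) and Tap2 (-0.02) were not called either. The other class I members that rose with both trends removed were H2-M3 (0.61), H2-Q10 (0.32) and Tapbp (0.20). The part of length and GC in the smaller changes was otherwise not tested.

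**Figure D3:**
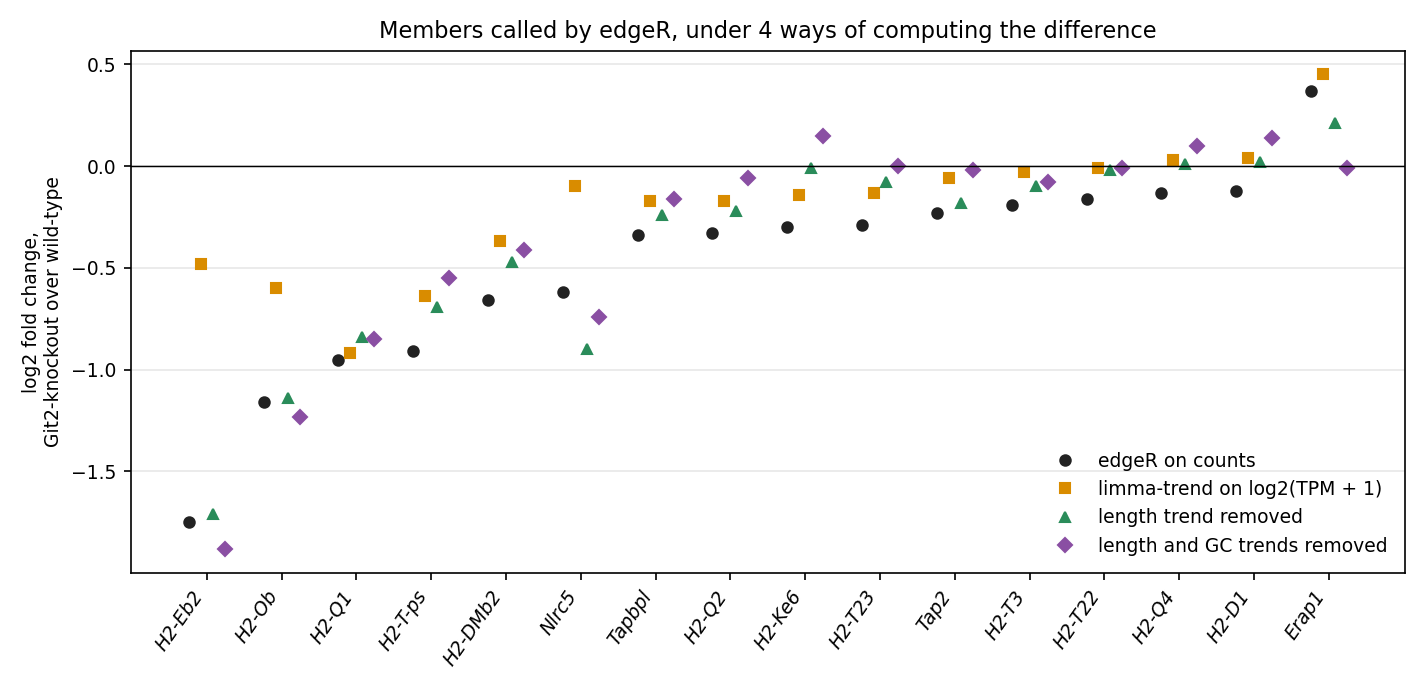
Log2 fold change (libraries labelled Git2-knockout over wild type) of the 16 called members under the count test, the TPM scale and the fits with length or with length and GC trends removed. H2-Q1 stays between -0.84 and -0.95 in these 4 fits, while H2-D1 moves across 0, at -0.12 in the count test and 0.14 with both trends removed.

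On the class II side, the genes of the I-A chains and the I-E beta chain gene H2-Eb1 were present at low but countable levels. No gene of an I-E alpha chain was among the members. H2-Aa, the I-A alpha chain, was at 25.3, 24.5 and 26.6 CPM in the libraries labelled Git2-knockout and at 20.2, 25.7 and 25.6 CPM in wild type (0.09, adjusted p = 0.362). H2-Ab1, the I-A beta chain, was at 20.6, 20 and 19.3 CPM in the libraries labelled Git2-knockout and at 22.9, 20.5 and 24.0 CPM in wild type (-0.17, 95% interval -0.33 to -0.01, adjusted p = 0.0606). H2-Eb1, the I-E beta chain, was at 19.4, 15.8 and 18.0 CPM in the libraries labelled Git2-knockout and at 17.5, 17.7 and 19.1 CPM in wild type (-0.03, adjusted p = 0.784). None of the 3 was called and all overlapped between groups, although H2-Ab1 was called as a fall without Git2-knockout replicate 1 (-0.22, adjusted p = 0.0189) or without wild-type replicate 2 (-0.24, adjusted p = 0.0228). Per length, H2-Aa averaged 53.4 TPM in libraries labelled Git2-knockout and 44.7 TPM in wild-type libraries, and H2-Ab1 averaged 39.4 TPM in libraries labelled Git2-knockout and 39.7 TPM in wild-type libraries. These levels lay far below those of H2-K1 and H2-D1.

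Cd74, the invariant chain that guides class II molecules to endosomes, was at 60.7, 52.3 and 50.9 CPM in the libraries labelled Git2-knockout and at 54.4, 58.1 and 58.7 CPM in wild type. It was not called (-0.06, adjusted p = 0.409). It was called as a fall without Git2-knockout replicate 1 (-0.17, adjusted p = 0.00345) and as a rise with the length trend removed (0.16, adjusted p = 0.00878) or with length and GC trends removed (0.27, adjusted p = 4.04e-05). Ciita, the class II transactivator, was at 1.82, 1.99 and 2.18 CPM in the libraries labelled Git2-knockout and at 1.88, 1.98 and 2.13 CPM in wild type. Its log2 fold change was 0.00 ± 0.19 (adjusted p = 0.995). The ratio of Cd74 to H2-Ab1 in CPM was 2.95, 2.62 and 2.64 in the libraries labelled Git2-knockout and 2.38, 2.84 and 2.45 in wild type, with overlap. H2-DMa, a chain of the DM peptide exchanger, was at 6.74, 6.27 and 6.95 CPM in the libraries labelled Git2-knockout and at 6.08, 6.73 and 5.96 CPM in wild type, and was not called (0.09, adjusted p = 0.516).

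The class II genes that fell were low in level. H2-Ob, the beta chain of the DO molecule that restrains DM and is best known from B cells, was at 1.15, 0.996 and 1.47 CPM in the libraries labelled Git2-knockout and at 2.69, 2.40 and 3.03 CPM in wild type. These values rest on 19, 17 and 25 counts in the libraries labelled Git2-knockout and on 50, 44.98 and 57 estimated counts in wild type. The level was 44.7% of wild type (95% interval 32.9% to 60.8%; -1.16 ± 0.21, adjusted p = 1.91e-04). H2-Eb2, another beta-chain gene of the I-E region, was at 0.243, 0.293 and 0.353 CPM in the libraries labelled Git2-knockout and at 1.02, 1.28 and 0.745 CPM in wild type. Its level was 29.7% of wild type (-1.75 ± 0.37, adjusted p = 8.05e-04), from 4, 5 and 5.84 estimated counts in the libraries labelled Git2-knockout. Neither gene overlapped between groups, and neither shares a 50-base stretch with another gene. Both stayed called as falls without any 1 library and with the length and GC trends removed (-1.23 for H2-Ob and -1.88 for H2-Eb2). On the log2(TPM + 1) scale, which shrinks changes of low genes, the differences were -0.60 and -0.48, both still called.

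H2-DMb1 and H2-DMb2 are duplicated beta chains of DM. H2-DMb2 was at 1.52, 0.937 and 1.53 CPM in the libraries labelled Git2-knockout and at 2.74, 1.82 and 1.76 CPM in wild type (-0.66 ± 0.25, adjusted p = 0.033). H2-DMb1 was at 2.43, 1.87 and 1.18 CPM in the libraries labelled Git2-knockout and at 1.18, 1.44 and 1.81 CPM in wild type (0.30, adjusted p = 0.348). Of their 50-base stretches 29.5% for H2-DMb2 and 27.2% for H2-DMb1 are shared, mostly with each other, so the fall of H2-DMb2 is uncertain. The call was also lost without Git2-knockout replicate 2 (adjusted p = 0.137) or without wild-type replicate 1 (0.189). H2-Oa, the partner of H2-Ob, had 5 to 13 estimated counts in each library and was not tested. Outside both classes, H2-Ke6 was at 44.5, 44.0 and 44.1 CPM in the libraries labelled Git2-knockout and at 50.2, 53.4 and 60.0 CPM in wild type and fell (-0.30 ± 0.06, adjusted p = 5.83e-04), with 62.9% of its 50-base stretches also in the gene model Gm20427. H2-Ke6 was not called with the length trend removed (-0.01, adjusted p = 0.937) or on log2(TPM + 1) (adjusted p = 0.0557), and was called as a rise with length and GC trends removed (0.15, adjusted p = 0.0164).

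**Figure D4:**
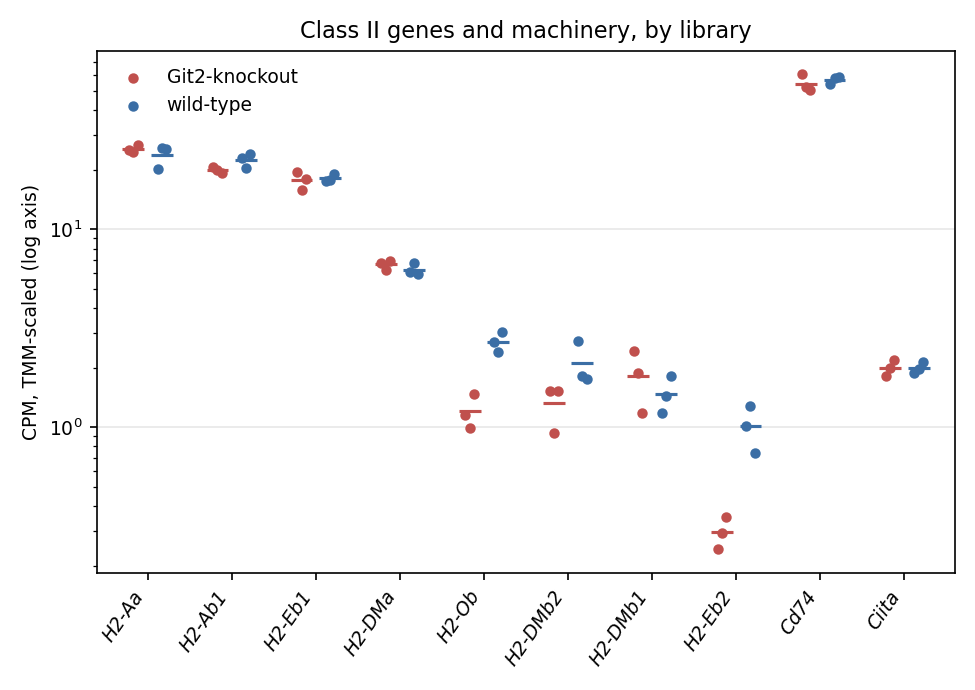
CPM in each library on a log axis for the tested class II genes, Cd74 and Ciita, libraries labelled Git2-knockout left of wild type, with group means as bars. H2-Aa, H2-Eb1, Cd74 and Ciita overlap between groups, while H2-Ob (0.996 to 1.47 CPM in libraries labelled Git2-knockout, 2.40 to 3.03 CPM in wild type) and H2-Eb2 (0.243 to 0.353 CPM in libraries labelled Git2-knockout, 0.745 to 1.28 CPM in wild type) do not.

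Summed over the class II genes, libraries labelled Git2-knockout had 78.1, 71.0 and 75.6 CPM and wild-type libraries 74.7, 78.0 and 82.7 CPM, with overlap. In TPM the sums were 133, 128 and 133 in the libraries labelled Git2-knockout and 116, 121 and 128 in wild type. With length and GC trends removed, 3 class II members rose and 2 fell (median 0.18 on the log2 scale), against 22.0% rises and 19.3% falls over all genes. The rises were H2-Aa (0.25, adjusted p = 0.0178), H2-Ab1 (0.19, adjusted p = 0.0279) and Cd74 (0.27, adjusted p = 4.04e-05), so the sign of H2-Ab1 and Cd74 depended on that correction, while the falls of H2-Ob and H2-Eb2 did not.

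Promoter windows of class II genes are shown to set the fallen H2-Ob and H2-Eb2 beside H2-Aa and H2-Eb1, which were not called. They come from RefSeq on GRCm38.p6, run 5′ to 3′ on the gene's strand, and begin 250 bases before the start. H2-Ob is at chr17:34238655-34238954, H2-Eb2 at chr17:34325425-34325724 and H2-Eb1 at chr17:34305617-34305916, all on the plus strand, and H2-Aa is at chr17:34287774-34288073 on the minus strand. Capitals mark CCAAT or ATTGG and the hexamer AGCAAC, which was added after the sequences had been read. Upstream of ATTGG the hexamer lies where the X box of these promoters is usually placed. The copy at 10 bases in H2-Eb2 lies downstream of ATTGG and not at that place.
H2-Ob: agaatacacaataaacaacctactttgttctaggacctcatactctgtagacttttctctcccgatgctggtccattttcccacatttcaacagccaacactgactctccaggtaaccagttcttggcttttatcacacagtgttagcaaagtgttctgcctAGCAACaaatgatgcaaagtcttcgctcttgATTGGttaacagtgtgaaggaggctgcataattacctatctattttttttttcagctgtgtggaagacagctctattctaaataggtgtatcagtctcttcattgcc
H2-Eb2: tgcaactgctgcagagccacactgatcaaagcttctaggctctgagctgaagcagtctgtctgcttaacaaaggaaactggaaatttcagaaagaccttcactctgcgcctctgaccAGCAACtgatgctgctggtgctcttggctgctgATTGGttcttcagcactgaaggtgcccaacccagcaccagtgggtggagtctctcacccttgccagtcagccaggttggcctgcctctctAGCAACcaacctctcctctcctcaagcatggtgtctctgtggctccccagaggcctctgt
H2-Aa: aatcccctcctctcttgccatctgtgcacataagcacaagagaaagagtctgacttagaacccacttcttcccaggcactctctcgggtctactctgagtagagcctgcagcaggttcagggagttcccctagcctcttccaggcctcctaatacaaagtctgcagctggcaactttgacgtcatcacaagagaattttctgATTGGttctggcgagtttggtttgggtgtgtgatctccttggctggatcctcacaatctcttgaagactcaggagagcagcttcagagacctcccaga
H2-Eb1: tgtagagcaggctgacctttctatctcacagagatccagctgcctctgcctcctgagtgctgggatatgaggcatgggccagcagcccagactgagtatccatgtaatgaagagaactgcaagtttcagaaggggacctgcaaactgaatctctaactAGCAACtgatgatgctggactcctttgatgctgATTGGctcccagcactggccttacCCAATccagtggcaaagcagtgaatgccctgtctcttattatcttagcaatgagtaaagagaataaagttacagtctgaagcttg
Each of the 4 windows holds the CCAAT box as ATTGG, beginning 57 bases before the start in H2-Ob, 100 in H2-Eb2, 48 in H2-Aa and 59 in H2-Eb1, with a further CCAAT in H2-Eb1 at 35 bases. AGCAAC begins 88 bases before the start in H2-Ob, 92 in H2-Eb1 and 133 and 10 in H2-Eb2, and the window of H2-Aa has none. An exact hexamer misses an X box with other letters, so H2-Aa may still hold one. The fallen genes and those not called therefore both included windows with the pair of motifs. Among class II genes 7 of 8 windows (87.5%) held CCAAT, against 37.4% of all windows. AGCAAC or its reverse complement was in 4 of 8 (50%), against 14.8% of all windows and 3 of 19 class I windows (15.8%). Because the hexamer was chosen after these class II windows had been read, its higher share in them was built in, and no conclusion is drawn from it. The ISRE core was in 0 of the 8 and TTCNNNGAA in 1 (12.5%).

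Markers of immune cells, some of which carry class II molecules, were set beside 29.6% rises and 27.4% falls over all genes tested. Summed levels of B cell, dendritic cell and macrophage markers did not overlap between the groups, while those of T cell markers did. B cell markers summed to 8.77 to 9.95 CPM in the libraries labelled Git2-knockout and to 20.9 to 21.5 CPM in wild-type libraries, and 8 of 9 tested fell, with a median log2 fold change of -1.15. Removing length and GC trends also left 8 of 9 called as falls (median -1.05), beside 19.3% falls over all genes. Cd79a, a signalling chain of the B cell receptor, was at 1.82, 1.41 and 1.53 CPM in the libraries labelled Git2-knockout and at 4.90, 4.81 and 4.63 CPM in wild type. H2-Ob and H2-Eb2 moved the same way as these markers, by -1.16 and -1.75, whereas H2-Aa, H2-Eb1, Cd74 and Ciita were not called. The ratio of H2-Ob to H2-Aa in CPM was 0.0456, 0.0407 and 0.0553 in the libraries labelled Git2-knockout and 0.133, 0.0934 and 0.119 in wild type, so the 2 genes did not keep 1 proportion. Dendritic cell markers summed to 75.4 to 81.7 CPM in the libraries labelled Git2-knockout and to 98.1 to 107 CPM in wild type, mostly from Irf8, and of 5 tested 1 rose and 2 fell. Macrophage and monocyte markers summed to 53.3 to 54.8 CPM in the libraries labelled Git2-knockout and to 46.1 to 48.1 CPM in wild type, and of 11 tested 3 rose (C1qa, C1qb and Fcgr1) and 0 fell. T cell and innate lymphocyte markers summed to 4.75 to 5.83 CPM in the libraries labelled Git2-knockout and to 5.0 to 5.98 CPM in wild type, and of 3 tested 1 fell. No listed gene in the table was at 0 in all libraries, and the part of these cells in the class II values was not tested.

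The labelled cell type was present in all libraries. Epithelial markers summed to 10443 to 10792 CPM in the libraries labelled Git2-knockout and to 11948 to 12523 CPM in wild type, and 8 of 10 fell, with a median log2 fold change of -0.26. With length and GC trends removed, 3 of the 10 rose and 5 fell, with a median of -0.05. Epcam was at 2440 to 2612 CPM in the libraries labelled Git2-knockout and at 2485 to 2513 CPM in wild type. Fibroblast markers summed to 109 to 113 CPM in the libraries labelled Git2-knockout and to 31.4 to 34.8 CPM in wild type, and endothelial markers to 46.4 to 51.5 CPM in the libraries labelled Git2-knockout and to 20.4 to 21.2 CPM in wild type. All 6 tested fibroblast markers and all 7 endothelial markers rose. Over all genes tested 29.6% rose and 27.4% fell. Beside that epithelial median of -0.26, abundant class I members stood at 0.03 (H2-K1), -0.04 (B2m), -0.12 (H2-D1) and 0.00 (Tapbp), H2-T3 at -0.19, H2-T23 at -0.29, H2-Q2 at -0.33, H2-Q1 at -0.95 and Erap1 at 0.37. The part of the cell makeup in the class I values was not tested.

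**Figure D5:**
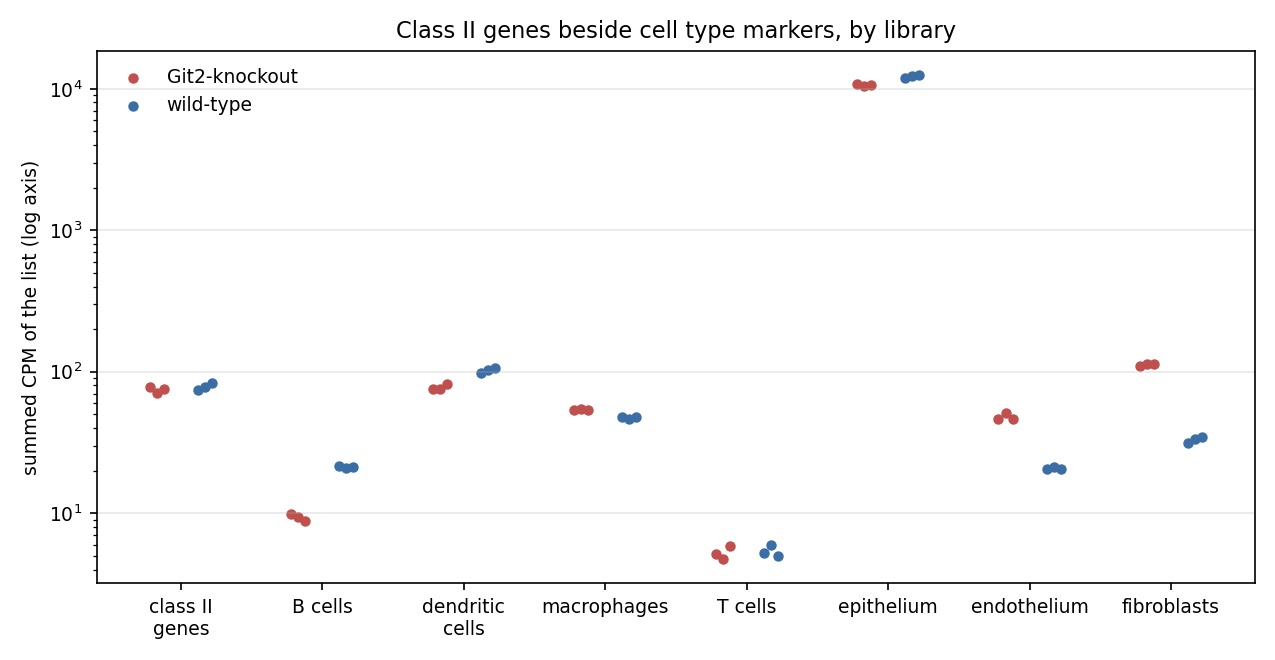
Summed CPM of the class II genes and of the marker lists in each library on a log axis, libraries labelled Git2-knockout left of wild type. The class II sums overlap between groups, the B cell sum is 8.77 to 9.95 CPM in libraries labelled Git2-knockout and 20.9 to 21.5 CPM in wild type, and the fibroblast sum is higher in every library labelled Git2-knockout.

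Other genes of antigen presentation were taken from a list of 39 genes that are no members, of which 38 were tested, Mr1 being the exception. Of these, 7 rose and 10 fell, with a median log2 fold change of -0.01. Over all genes tested 29.6% rose and 27.4% fell. In class I processing 1 of 11 rose and 7 fell. The immunoproteasome subunits Psmb8 (-0.60), Psmb10 (-0.56) and Psmb9 (-0.51) fell, as did the proteasome activator subunits Psme1 (-0.40) and Psme2 (-0.32), the chaperone Calr (-0.27) and Fcgrt (-0.41), the heavy chain of the neonatal Fc receptor. Canx, the chaperone calnexin, rose (0.20). With length and GC trends removed, Psmb8 (-0.33, adjusted p = 0.00126), Psmb10 (-0.23), Calr (-0.16) and Fcgrt (-0.15) were still called as falls. Psmb9 (-0.11), Psme1 (-0.00) and Psme2 (0.04) were then not called. Canx turned from a rise to a called fall (-0.12, adjusted p = 0.0011). In class II processing 0 of 8 rose and 3 fell: the cathepsins Ctsb (-0.16) and Ctsd (-0.27), and Ifi30 (-0.34), the lysosomal thiol reductase. Limma-trend on log2(TPM + 1) called 4 rises in that list, against 42.1% rises over all genes on that scale. With length and GC trends removed, 2 of the 8 rose and 2 fell, beside 22.0% rises and 19.3% falls over all genes. Ctss (0.18, adjusted p = 1.27e-05) and Lgmn (0.15, adjusted p = 4.98e-06) then rose. Marchf1 (-0.58, adjusted p = 0.00116) then fell, and Ctsb was still called as a fall (-0.06, adjusted p = 0.0485). Ctsd (-0.02) and Ifi30 (0.00) were not called.

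Beside 29.6% rises and 27.4% falls over all genes tested, 5 of 14 regulators rose and 0 fell. These were Rfx5 (0.25), a subunit of the factor that binds the X box, Creb1 (0.46), the interferon-gamma receptor chain Ifngr1 (0.14), and the kinases Jak1 (0.28) and Jak2 (0.33) that it uses. Creb1 was at -0.08 with length and GC trends removed, so its sign turned. Irf1 (0.02), a transcription factor of the interferon-gamma response, was not called, though it rose with length and GC trends removed (0.19). Of 5 genes for co-signals, Cd274, which encodes the inhibitory ligand PD-L1, rose (0.84, adjusted p = 4.90e-05) and 0 fell. Its level was 5.44 ± 0.351 CPM in libraries labelled Git2-knockout and 3.03 ± 0.105 CPM in wild-type libraries (SD, n = 3 each), and with length and GC trends removed its log2 fold change was 0.63.

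Genes that lie between H2-K1 and H2-M2 on chromosome 17 without being members were compared with the members, since most members lie in that interval. Of 96 tested, 9 rose and 49 fell, with a median log2 fold change of -0.16, against -0.13 for the 34 members. The shares over all genes tested were 29.6% rises and 27.4% falls. The neighbours include Psmb8 and Psmb9, and the gene models Gm11127 and Gm7030, which share 50-base stretches with H2-T3 and H2-M5. Without wild-type replicate 3 the number of neighbours that rose was 5. These neighbours, with a median length of 1.99 kb and a GC content of 55.6%, are also shorter and richer in GC than all genes tested. With length and GC trends removed, 19 of the neighbours rose and 14 fell, with a median of 0.01, and on the members 9 rose and 6 fell, with a median of 0.05. Over all genes 22.0% then rose and 19.3% fell. The members outside chromosome 17 did not share 1 direction: Erap1 on chromosome 13 rose, Tapbpl on chromosome 6 and Nlrc5 on chromosome 8 fell, and B2m on chromosome 2, Ciita on chromosome 16 and Cd74 on chromosome 18 were not called.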

How the data were processed

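RNA-seq of mouse intestinal epithelial cells was deposited as 1 table with values for 3 libraries labelled Git2-knockout and 3 wild-type libraries, grouped by their titles. Per the labels' protocols, mRNA was captured with oligo(dT) from total RNA. Per the submitters' processing notes, HISAT, Bowtie2 and RSEM were used with the GRCm39 build; no version, annotation or strand setting is stated. Per the file headers the table holds counts, which are estimated counts (58.9% to 69.2% of values per library were not whole). The deposited TPM values correct for transcript length and library total, per the file headers. The deposited FPKM values served only to derive transcript length. The authors' group averages were not used.

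Rounded estimated counts were tested with edgeR 4.0.16 under R 4.3.3 (filterByExpr, TMM, robust quasi-likelihood test, two-sided, without covariates). Benjamini-Hochberg adjustment ran over the 13558 genes that passed the filter, and calls were made at 0.05. Values after ± beside a log2 fold change are SEs, computed as the fold change over the square root of F. The labels do not tie replicates to separate mice or enteroid cultures. P-values therefore reflect the spread of these samples alone, and that spread may be technical. TPM was tested with limma 3.58.1 (limma-trend on log2(TPM + 1), a scale that understates changes of low genes). DESeq2 1.42.0, limma-voom, other scalings and filters, the replicate number as a block, removal of length and GC trends per library (loess, span 0.5) and leaving out each library were the alternatives. Replicates differed by more than counting noise, so each counted. Shared sequence is the share of 50-base stretches of GENCODE transcripts (GRCm38) found in another gene, for 40 of 41 members. Promoter windows and gene positions came from RefSeq (GRCm38.p6), where 32 members had a window and all 41 gene numbers matched; the window coordinates are those of GRCm38.p6, not of the build used for mapping, and no other coordinates are given. Only the main edgeR test was run on simulated counts. The other settings, including the removal of length and GC trends, were not. The members, lists, tests and motifs were chosen with earlier results of these data known. Every member is named. Listed pathway genes are named where called in the count test, with Irf1, Ctss, Lgmn, Marchf1 and the untested Mr1 besides. A few listed genes that are no members are not reported here.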

Additional observations from a re-analysis of the deposited data

How the results depend on the processing

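Of the 16 calls among members, H2-Q1, H2-T-ps, Tapbpl, H2-Eb2 and H2-Ob kept call and direction in every setting in which they were tested. RLE, upper quartile, limma-voom and the non-robust fit kept all 16, DESeq2 kept 13 and library totals 12. The calls depended most on length and GC. On log2(TPM + 1), 8 calls were kept, 5 class I members rose and 5 fell, 1 class II member rose, 16 pathway genes rose, 19 neighbours in the MHC interval rose and 30 fell, and 1894 genes fell in all. With the length trend removed, 5 class I members rose and 7 fell, and 2 class II members rose. With length and GC trends removed, 6 calls were kept, 5 class I members rose and 4 fell, 3 class II members rose, and 19 neighbours rose and 14 fell. Library totals left 7 class I falls, DESeq2 gave 5 rising neighbours, and a filter of 5 CPM in 3 libraries left 0 class II falls by edgeR because H2-Ob, H2-Eb2 and H2-DMb2 no longer entered the test. Leaving out 1 library gave 6 to 12 class I falls, 2 to 5 class II falls and 5 to 8 rising neighbours.

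Some called members changed sign or lost their change, and some uncalled ones were called with the other sign. On the TPM scale H2-D1 (0.04) and H2-Q4 (0.03) turned, as did the summed class I level (log2 ratio 0.04), and the summed class II level stood at 0.11. With length removed H2-D1 (0.02) and H2-Q4 (0.01) turned, and Cd74 (0.16) and B2m (0.28) were called as rises. With length and GC removed H2-D1 (0.14), H2-Q4 (0.10), H2-Ke6 (0.15) and Erap1 (-0.01) turned, H2-T23 was at 0.00, and Cd74 (0.27) and H2-Ab1 (0.19) were called as rises. Signs of members not called in either fit, such as H2-Eb1 and Tap1, also turned and are not listed. The cause was not tested. Deviations of same-numbered libraries had correlations of 0.041, -0.001 and 0.05, and those of differently numbered libraries ran from -0.068 to 0.033. All were small, but with 3 libraries per group they cannot decide whether the numbers pair the libraries. With the replicate number as a block 10 class I and 3 class II members fell, H2-Q4 and Nlrc5 lost their calls and H2-Q7 gained one (-1.08, adjusted p = 0.0403). Depth limits H2-Ob, H2-Eb2, H2-DMb2, H2-T-ps and Nlrc5, which were under 5 CPM in every library. Genes that share sequence are limited by how reads were divided.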
